A study of Mus musculus with 2 samples.

Results

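The suppressor of cytokine signalling (SOCS) family has 8 members in the mouse, Cish and Socs1 to Socs7, and all 8 were found by gene symbol among the 55536 annotated genes of the tables. Their RNA was measured in nuclei of bone marrow-derived macrophages of C57BL/6J mice, by sequencing of total RNA after removal of ribosomal RNA. Both libraries come from the same treatment. The cells received Lipid A, the TLR4-binding moiety of lipopolysaccharide, at 100 ng/ml over 12 hours, were washed and left for another 12 hours, and then received 100 ng/ml again for 60 minutes. Replicate 1 was made from 1000 ng of RNA and replicate 2 from 500 ng. The labels name the same donor for both and call the fraction nucleoplasmic in one field and nuclear in another, so the spread between replicates may be partly technical. Unstimulated cells were not analysed here, so the values are levels and not responses to Lipid A.

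SOCS proteins form a negative feedback loop on cytokine receptors. Cytokines activate JAK kinases, these phosphorylate STAT transcription factors, and STATs switch on several SOCS genes, whose products then bind the receptor or the kinase through an SH2 domain and shut it down. The SOCS box at the end of each protein binds elongins B and C and a cullin, which together attach ubiquitin to the captured target. SOCS1 and SOCS3 also carry a short stretch that blocks JAK kinase activity directly. In macrophages SOCS1 is known as a brake on interferon signalling and SOCS3 as a brake on the interleukin-6 receptor chain gp130.

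Annotated genes received 23630328 expected counts in replicate 1 and 15687634 in replicate 2. All 8 macrophage markers reached 1 TPM (a relative abundance corrected for transcript length) in both libraries, with a summed level of 3991 and 2385 TPM in replicates 1 and 2. Of the markers of other cells, 0 of 6 for T and NK cells, 0 of 4 for B cells, 0 of 5 for neutrophils and 0 of 4 for mast cells and basophils did so. The deposited TPM is not centred between the libraries: its log2 ratio, replicate 1 over replicate 2, had a median of 0.47 over protein-coding genes of the nuclear genome. The median was -0.11 with TPM rescaled over these genes and -0.39 with the second quantifier, a set of transcript tables in kallisto format. Differences between the libraries are therefore given below on counts normalised by TMM, on which the median gene lay at -0.0045.

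Socs3 stood far above the other members. The gene (ENSMUSG00000053113.3, chromosome 11, 117966079 to 117970047, minus strand, mm10) had 188 and 133 TPM in replicates 1 and 2, a mean of 161 ± 39.3 TPM (SD, n = 2), from 11614 and 7298 expected counts. Its lower library was above the higher library of every other member. Only 230 of 22028 protein-coding genes had a higher mean TPM. The level depended on the scale, with 54.7 and 71.9 TPM in the second quantifier and a mean of 688 with rescaled TPM. In each library the TPM lay above its own deposited interval, 178 to 185 TPM for replicate 1 and 125 to 132 TPM for replicate 2. Socs3 held 84.7% of the summed TPM of the 8 members in replicate 1 and 84.1% in replicate 2, and 81.5% and 80.7% with the second quantifier. Without correction for length its share of the family's counts was 72.8% as the mean of both libraries.

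Socs1, the member closest to Socs3 in build and function, was among the low members. By mean TPM it lay above 63.3% of protein-coding genes. It (ENSMUSG00000038037.5, chromosome 16, 10782240 to 10785536, minus strand) had 2.51 and 1.20 TPM in replicates 1 and 2, from 173 and 74 expected counts. Its mean was 1.86 ± 0.926 TPM (SD, n = 2). The ranges of Socs3 and Socs1 do not overlap. The windows of 250 bases before the RefSeq starts of these genes are printed because they are well known STAT and interferon targets of the family and differ widely in level. The capitals in Socs3, at chr11:117969367-117969616 of GRCm38.p6, mark TTCNNNGAA, the palindrome that STAT dimers bind. Those in Socs1, at chr16:10785537-10785786, mark 2 overlapping matches of the core of the interferon-stimulated response element, which is GAAA, any 2 bases and GAAA again. Both windows are on the minus strand and read 5′ to 3′.

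Socs3: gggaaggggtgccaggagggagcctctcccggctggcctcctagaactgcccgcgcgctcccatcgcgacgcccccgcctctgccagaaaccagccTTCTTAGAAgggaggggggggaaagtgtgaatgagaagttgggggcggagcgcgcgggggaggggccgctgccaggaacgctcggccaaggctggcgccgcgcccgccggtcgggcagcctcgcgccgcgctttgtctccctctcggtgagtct

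Socs1: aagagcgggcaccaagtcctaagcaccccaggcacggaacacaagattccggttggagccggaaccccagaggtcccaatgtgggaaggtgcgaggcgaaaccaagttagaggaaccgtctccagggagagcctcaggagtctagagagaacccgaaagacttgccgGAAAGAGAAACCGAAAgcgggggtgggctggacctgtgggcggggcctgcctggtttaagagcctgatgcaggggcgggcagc

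The STAT palindrome of Socs3 lies 154 to 146 bases before the RefSeq start at 117969366. Socs3-201, the annotated form with nearly all of the gene's TPM, starts downstream of that, at 117969186, so the window is not the one next to its start. The 2 matches in Socs1 span bases 83 to 68 before its start. Over both strands, TTCNNNGAA occurs in 7.02% of 32851 RefSeq windows of this length and the interferon element core in 2.98%, while the NF-kB consensus, present in 7.25% of windows, has no match in either gene. The RefSeq table held 4 of the 8 members. The windows of the other 2 it held, Cish and Socs4, match none of the 3 motifs. A match is a description of letters, and no match says only that these letters are not in this window.

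**Figure D1:**
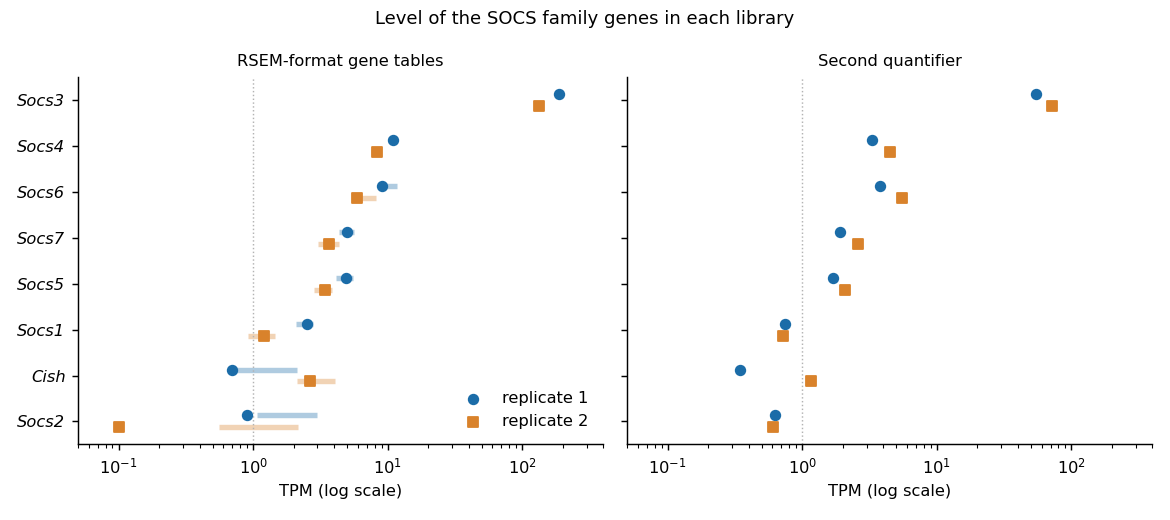
Level of each member in TPM on a log scale, in the RSEM-format gene tables (left, with bars for the deposited TPM interval) and the second quantifier (right). Circles are replicate 1 and squares replicate 2. Socs3, at 188 and 133 TPM, stands alone on the right, Cish is the member whose replicate 2 lies to the right of replicate 1 in both panels, and the dotted line marks 1 TPM.

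Cish, the founding member, whose product binds receptors that signal through STAT5, was low within the family and differed between the libraries. It (ENSMUSG00000032578.7, chromosome 9, 107296026 to 107302784, plus strand) had 0.70 and 2.64 TPM in replicates 1 and 2, a mean of 1.67 ± 1.37 TPM (SD, n = 2), from 72 and 195 expected counts. The deposited intervals, whose level is not stated, spanned 0.666 to 2.10 TPM for replicate 1, and for replicate 2 they spanned 2.13 to 4.08 TPM, without overlap.

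Socs2, a regulator of growth hormone signalling, had the lowest mean TPM of the members. It (ENSMUSG00000020027.18, chromosome 10, 95385362 to 95417180, minus strand) had 0.90 and 0.10 TPM in replicates 1 and 2, from 26 and 6 expected counts. The second quantifier gave it 0.628 and 0.601 TPM from 101 and 73.3 counts. The posterior means deposited beside the TPM were 1.95 and 1.30 TPM, and in each library the TPM lay below its own interval, which was 1.07 to 2.97 TPM for replicate 1 and 0.558 to 2.17 TPM for replicate 2. The 6 expected counts of replicate 2 lie on Socs2-209 and Socs2-214, with 3 each, and the tables give its level in replicate 2 as 0.10, 0.601 or 1.30 TPM depending on the column.

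The members less tied to STATs, Socs4 to Socs7, were steady and intermediate. Socs4 (ENSMUSG00000048379.9, chromosome 14, 47276931 to 47296102, plus strand), known as a regulator of the EGF receptor, had 10.9 and 8.29 TPM in replicates 1 and 2. Socs6 (ENSMUSG00000056153.15, chromosome 18, 88665224 to 88927481, minus strand), linked to the receptor tyrosine kinase KIT, had 9.04 and 5.86 TPM. These 2 genes followed Socs3 in the order, at means of 9.59 ± 1.84 and 7.45 ± 2.25 TPM (SD, n = 2). Socs7 (ENSMUSG00000038485.5, chromosome 11, 97362551 to 97398542, plus strand), a binder of adaptor proteins, had 5.0 and 3.65 TPM in replicates 1 and 2. Socs5 (ENSMUSG00000037104.9, chromosome 17, 87107679 to 87137839, plus strand), like Socs4 a regulator of the EGF receptor, had 4.91 and 3.40 TPM. Egfr itself had 1 expected count in each library, with 0.232 and 0.305 TPM in the second quantifier. Kit had 0.77 and 0.52 TPM.

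Of the 8 members 6 reached 1 TPM in both libraries, and 39.9% of protein-coding genes did so. The number of members was 5 with the second quantifier, where Socs1 had 0.748 and 0.725 TPM. It was 7 with rescaled TPM and 8 with posterior means. Only Socs3 reached 10 TPM in both, as 14.9% of protein-coding genes did. Rescaling raised the TPM of protein-coding genes in general, and 5 members then reached 10 TPM. The shares of protein-coding genes on these other scales were not computed. The family had a median of 4.96 and 3.53 TPM in replicates 1 and 2, against 0.28 and 0.21 TPM over all protein-coding genes. In the order by mean TPM, the ranges over the libraries separated Socs3 from Socs4, Socs6 from Socs7 and Socs5 from Socs1. They overlapped between Socs4 and Socs6, between Socs7 and Socs5, between Socs1 and Cish, and between Cish and Socs2. Socs1 was above Cish in replicate 1 and below it in replicate 2, and so was Socs2. The second quantifier put Socs6 above Socs4, at 3.8 and 5.54 TPM for Socs6 and 3.32 and 4.46 TPM for Socs4.

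Relative to other genes, 5 members lay near 0 between the libraries and Cish lay farthest from it on TMM-normalised counts. The log2 ratio, replicate 1 over replicate 2, was 0.06 for Socs3, -0.06 for Socs4, -0.06 for Socs6, 0.10 for Socs7 and 0.09 for Socs5. The sign of each of these 5 changed between scalings, for Socs3 to -0.08 with rescaled TPM and for Socs4 to 0.39 with the deposited TPM. For Cish it was -2.04, with a 95% interval of -2.46 to -1.65 from exact binomial bounds on the counts, which cover counting error only. Of the 14052 genes tested, those averaging at least 10 counts, 0.370% had a lower ratio than Cish. Cish stayed between -2.50 and -1.76 in the other scalings and in the second quantifier. With 1 library on each side these differences have no test.

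Socs1 and Socs2 went the other way. The log2 ratio of Socs1 was 0.61 (counting interval 0.21 to 1.03) and that of Socs2 1.41 (0.19 to 3.07). In all, 2 of 8 members were over 2-fold apart between the libraries, Cish and Socs2, and 8.59% of all genes tested were, 4.16% higher in replicate 1 and 4.43% higher in replicate 2. Among genes within 2-fold of the count of Socs2 the share was 24.3%, and among those within 2-fold of the count of Cish 5.81%. In the second quantifier the ratio of Socs2 was 0.36, so there Cish alone was over 2-fold apart. In the deposited TPM, which is not centred, it was 3.17 for Socs2, -1.92 for Cish and 1.06 for Socs1.

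**Figure D2:**
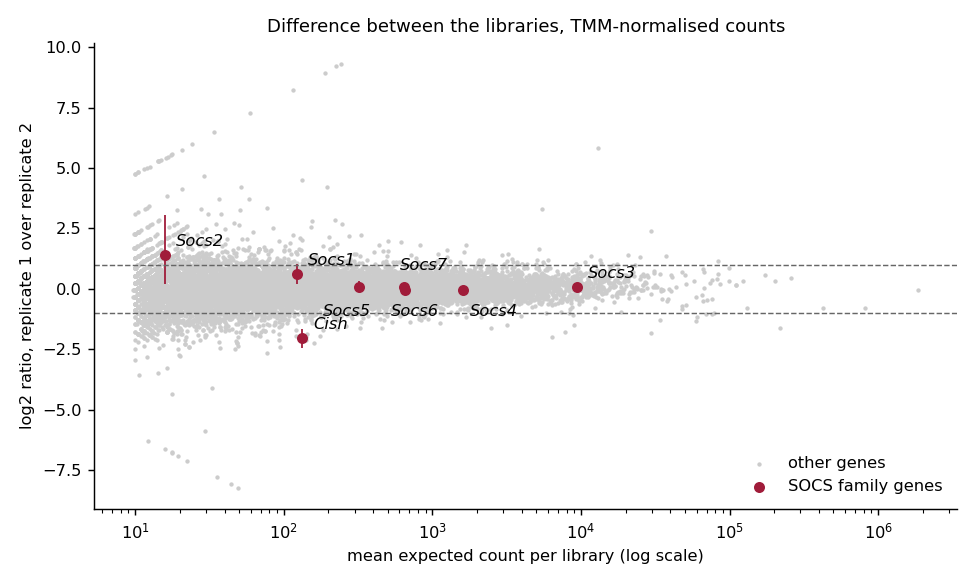
Log2 ratio of TMM-normalised counts, replicate 1 over replicate 2, against the mean expected count on a log scale, for 14052 genes (grey) and the 8 members (red, with 95% counting intervals). Dashed lines mark a 2-fold difference. Cish, at -2.04, lies at the lower edge of the grey points at its count, and Socs3, Socs4, Socs5, Socs6 and Socs7 lie near 0.

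Markers of cells in which Cish is well known, such as T cells and mast cells, were near 0 in both libraries. Summed over 6 T and NK cell markers the level was 0.30 and 0.13 TPM in replicates 1 and 2, and Cd3e, Cd2 and Klrb1c had 0 counts in both. Over 4 mast cell and basophil markers it was 0.02 and 0.16 TPM, with Cpa3 and Fcer1a at 0 counts. The second quantifier gave the T cell gene Cd3d 0.920 and 3.31 TPM, against 2 and 0 expected counts in the gene tables. The part of other cells in the difference of Cish was not tested. RNA input and depth also differed between the libraries, as did the part of the TPM on protein-coding genes of the nuclear genome. None of these can be told apart from the replicate.

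At the level of transcripts the family split into genes with a dominant coding form and genes without. The annotation holds 40 transcripts of the members, 24 of them protein-coding, and 20 had 1 or more expected counts in both libraries. Socs3-201, with 2 exons and its whole coding sequence of 675 bases in the second, held 99.9% of the gene's TPM in replicate 1 and 99.6% in replicate 2. Socs4-201 held 100% in both libraries. Socs7-201, the form with 10 exons, held 88.8% and 82.7%, and its processed transcript Socs7-202 had 4.43 and 4.28 expected counts. The large share of that short form in TPM, 11.2% and 17.3%, stands against 0.554% and 0.875% of the gene's counts.

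Socs5 and Socs6 used several forms. Socs5-201, which carries the full coding sequence of 1608 bases, held 58.5% in replicate 1 and 52.9% in replicate 2, and the processed transcript Socs5-202 held 17.5% and 34.7%. Socs6-203 and Socs6-201 share a coding sequence of 1599 bases. Socs6-203 held 50.3% in replicate 1 and 43.2% in replicate 2, and Socs6-201 25.8% and 42.2%. By expected counts, which are not corrected for length, Socs6-201 came first, with 45.8% and 63.9% against 39.9% and 29.2% for Socs6-203. Socs5-201 held 83.7% and 76.6% of the counts of its gene. The quantifiers parted on Socs6-204, a processed transcript that had 1.04 and 1.02 expected counts but 87.2 and 86.6 counts in the second quantifier. The forms of Socs1, which share a coding sequence of 636 bases in a single exon and differ in where the first intron ends, were ordered oppositely. Socs1-201 held 63.7% in replicate 1 and 57.1% in replicate 2 in the RSEM-format tables, but 31.9% and 28.5% in the second quantifier.

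**Figure D3:**
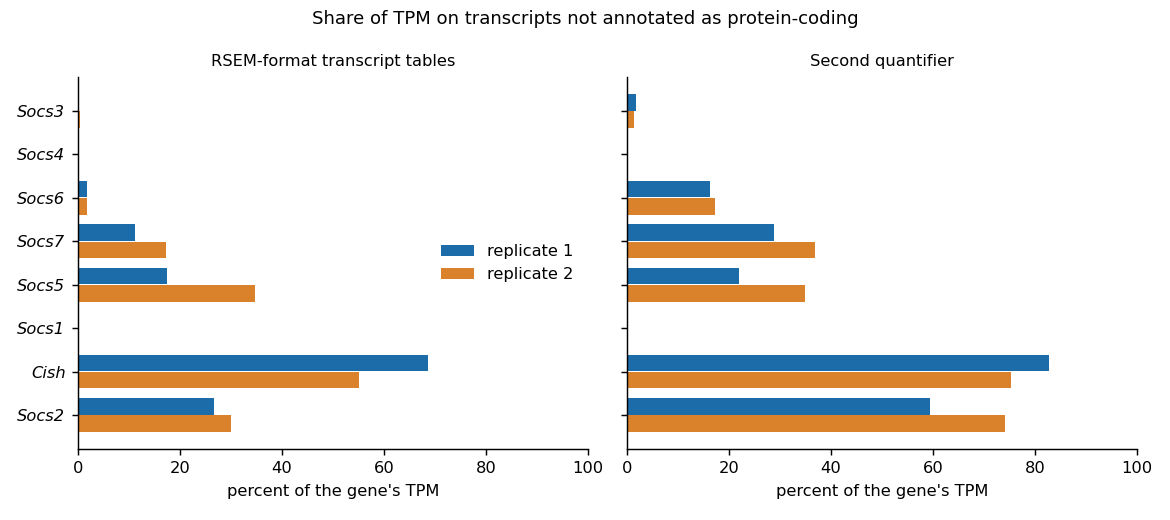
Percent of each gene's TPM on transcripts not annotated as protein-coding, in the RSEM-format tables (left) and the second quantifier (right), for replicate 1 (blue) and replicate 2 (orange). Cish has the longest bars, 68.6% and 55.1% on the left, and Socs1 and Socs4 have none.

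Most Cish counts were assigned to a form that is not annotated as coding. Cish-202, a processed transcript of 4697 bases, had 57.0 of 72 expected counts in replicate 1 and 154 of 195 in replicate 2, against 4.83 and 8.59 for the full coding form Cish-201 and 10.2 and 29.6 for Cish-204. The processed transcripts together held 79.2% of the gene's counts in replicate 1 and 79.1% in replicate 2, and 82.2% and 84.0% in the second quantifier. Counts of Cish-202, Cish-201 and Cish-204 were all higher in replicate 2. By TPM, Cish-202 held 68.6% and 55.1% of the gene, and 43.9% and 75.3% in the second quantifier. By posterior means it held 35.2% and 45.7% in replicates 1 and 2. The first exon of Cish-202 has 2872 bases and runs 2744 bases into the first intron of Cish-201, so that its exons hold 2772 of the 2889 bases of that intron. Its second exon starts 28 bases before that of Cish-201, at chr9:107299896-107299923 of mm10. The junction is printed below from the GENCODE transcript, on the plus strand, because it tells this form from the coding ones. Reads across it were not counted here. Unspliced Cish RNA would also hold the first intron, and its part in the counts of Cish-202 was not tested. The capitals mark the 28 extra bases, with 30 bases on either side.

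Cish-202: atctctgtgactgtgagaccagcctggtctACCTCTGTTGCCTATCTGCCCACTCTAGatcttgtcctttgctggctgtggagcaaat

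The annotation places genes on the opposite strand at both ends of Cish, the pseudogene Gm17040 (chromosome 9, 107292435 to 107297192) and the antisense gene Gm17041 (107300380 to 107301838). Both had 0 expected counts in each library, and the second quantifier gave Gm17040 0 and 1 count and Gm17041 0 in both. Whether the counting used strand is not given in the sources used here, so reads from Cish and these genes cannot be told apart with certainty. The 3 pseudogenes examined within the span of Socs6 had at most 1 expected count.

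**Figure D4:**
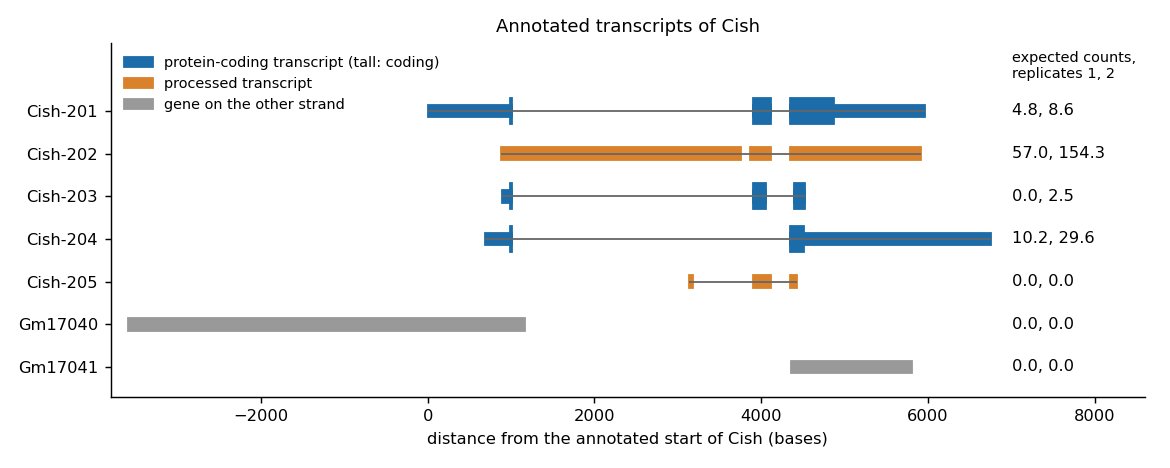
Annotated transcripts of Cish and the genes on the other strand, by distance in bases from the annotated start of Cish, with expected counts of replicates 1 and 2 at the right. Boxes are exons and tall boxes coding parts. Cish-202, with the long first exon, has 57.0 and 154 counts, the most of the 5 transcripts.

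RNA of the machinery that SOCS proteins recruit was present. All 8 genes of the ligase list reached 1 TPM in both libraries, with a median of 14.0 and 8.80 TPM in replicates 1 and 2. Of protein-coding genes 39.9% did so, with a median of 0.28 and 0.21 TPM over all of them. Ube2f, the enzyme that passes NEDD8 to CUL5, had 44.6 and 39.0 TPM in replicates 1 and 2, Nedd8 itself 20.5 and 26.6 TPM, and the elongin C gene Eloc 15.1 and 18.3 TPM. Of 27 other SOCS box genes 11 reached 1 TPM in both, near the 39.9% of protein-coding genes, and the median was 0.33 and 0.34 TPM. Wsb1, which encodes a substrate receptor with WD40 repeats, had 267 and 195 TPM in replicates 1 and 2, above Socs3 in each library. Its relative Wsb2 had 31.2 and 23.9 TPM, and Asb6, of the ankyrin repeat group, 7.13 and 6.12 TPM. Asb9, Asb10, Asb11, Asb12, Asb16, Asb17 and Asb18 had 0 counts in both libraries.

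For the kinases and transcription factors upstream of the family, RNA was mostly present. Of 11 JAK and STAT genes 10 reached 1 TPM in both libraries, against 39.9% of protein-coding genes. The median of the list was 45.5 and 28.9 TPM. Stat2, a transcription factor of type I interferon signalling, had 238 and 112 TPM in replicates 1 and 2, and the kinase gene Tyk2 63.5 and 33.0 TPM. Stat3, the usual activator of Socs3, had 45.6 and 18.4 TPM, a relative log2 ratio of 0.56 beside 0.06 for Socs3. The usual activators of Cish, Stat5a and Stat5b, had ratios of -0.65 and 0.17 beside -2.04 for Cish. A link between the RNA of these STATs and that of the members was not tested.

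Receptor RNA was mostly present, and the share of cytokine genes with RNA present was near that of all protein-coding genes. Among 27 cytokine receptors 19 were at 1 TPM or above in each library, against 39.9% of protein-coding genes. The median of the receptors was 23.7 and 15.8 TPM. The highest were Il2rg (202 and 138 TPM in replicates 1 and 2), Il10rb (119 and 86.7 TPM) and Il10ra (123 and 59.5 TPM). Il6st, which encodes gp130, had 23.4 and 16.8 TPM. Lepr, Osmr and Prlr had 0 counts in both libraries, although the second quantifier gave Lepr 0.801 and 0.991 TPM. Of 22 cytokine genes 9 reached 1 TPM in both, near the 39.9% of protein-coding genes, with a median of 0.47 and 1.04 TPM. Ebi3 had 74.2 and 49.3 TPM in replicates 1 and 2, Il15 64.7 and 36.3 TPM and Il10 24.9 and 27.9 TPM. The genes Epo, Ifng, Il13, Il2, Il21, Il4, Lep and Thpo had 0 counts in both. At 3 counts per library, the limit that a count of 0 leaves for Ifng is 0.194 and 0.221 TPM, and for Il4 0.317 and 0.365 TPM.

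Of 12 cytokine genes tested, 4 were over 2-fold higher in replicate 2, where 4.43% of all genes tested were. These genes are named after their values were seen. Csf2, the gene of GM-CSF, had 10 expected counts in replicate 1 and 36 in replicate 2, a log2 ratio of -2.41. Il23a had 17 and 43 counts, Il12b 530 and 887 and Lif 8 and 20. In deposited TPM Csf2, Il23a and Il12b were also higher in replicate 2, but Lif was not, at 0.28 and 0.24 TPM in replicates 1 and 2. Of genes within 2-fold of the 16 mean counts of Socs2, 24.3% were over 2-fold apart in either direction. Csf2, Il23a and Lif lie in this range of counts and Il12b above it. Averaging below 10 counts and so not tested, Csf3 had 14 and 0 counts and Il12a 5 and 13. These differences rest on 2 libraries and have no test.

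For other brakes on the pathway RNA was present throughout, all 11 genes of that list reaching 1 TPM in both libraries, against 39.9% of protein-coding genes. The median of the list was 12.8 and 10.1 TPM in replicates 1 and 2. Ptprc, the CD45 phosphatase, had 414 and 334 TPM in replicates 1 and 2. Usp18, an interferon-induced inhibitor of the interferon receptor, had 101 and 43.6 TPM, and Ptpn6, the phosphatase SHP-1, 64.9 and 21.6 TPM. Pias3, an inhibitor of STAT3, was the lowest at 3.0 and 1.51 TPM, which is above Socs1 in each library.

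**Figure D5:**
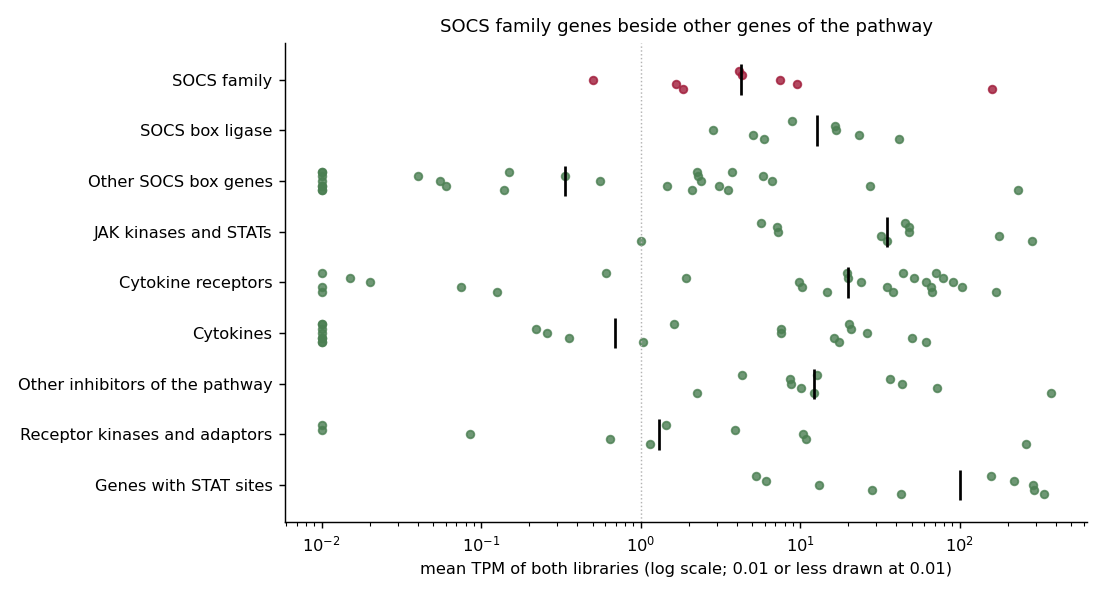
Mean TPM of both libraries on a log scale for the members (top, red) and the genes of 8 pathway lists (green), each point a gene and each bar a list's median; means of 0.01 TPM or less are drawn at 0.01. The members run from 0.50 TPM for Socs2 to 161 TPM for Socs3.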

How the data were processed

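RNA of 2 libraries was quantified by the submitters. The readme files deposited with the tables name mm10 and GENCODE M21, and record that the RSEM-format gene tables derive from an alignment file and the kallisto-format tables (the second quantifier) from reads. Per the file headers, the deposited tables hold expected counts, which are estimates and can be fractional, and TPM, with a posterior mean and bounds for each TPM. No source used here names the aligner, the tool versions or the use of strand.

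Members were selected by symbol. Rounded expected counts were scaled by TMM (edgeR 4.0.16 under R 4.3.3) across 14052 genes averaging at least 10 counts, and log2 ratios used a prior count of 0.5. DESeq2 1.42.0 gave other size factors. Both libraries form 1 group, so no condition was tested. Rows naming no annotated gene, which held 1.19% and 0.215% of the expected counts of replicates 1 and 2, were left out. A count of 0 allows 3 counts, and this limit and the intervals cover counting error only. The ratios were tested on simulated data. Scripts ran in Python 3.11.15 with scipy 1.17.1, pandas 2.3.3 and numpy 2.4.6.

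The members and lists were chosen with earlier results of these data known. Named were all 8 members and, in each list, the 3 genes with the highest mean and those at 0 counts in both libraries. A gene that this rule names is not reported here. Egfr, Kit, Stat3, Stat5a, Stat5b, Il6st, Pias3, Pim2, Tirap, Irs1, Irs2, Cd3d, Csf3, Il12a and the 4 cytokine genes over 2-fold apart were added after their values were seen. Alternatives were the second quantifier, other scalings and floors, the posterior mean, counts without length correction and each library alone. A prior count of 2 was added after seeing the data.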

Additional observations from a re-analysis of the deposited data

How the results depend on the processing

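The share of the family's TPM on Socs3 was 84.4% as the mean of both libraries, 81.1% with the second quantifier, 82.9% with posterior means and 72.8% in counts without length correction. With a floor of 5 TPM 3 members were present in both libraries, not 6. The number at 10 TPM was 1, and 5 with rescaled TPM or with counts scaled to depth alone, and 1 to 2 when either library was left out. The number over 2-fold apart was 2, and 1 with the second quantifier. For each gene the transcript leading by TPM in the RSEM-format tables was kept in every alternative. This held also where another form led, as Socs1-202 did in the second quantifier, with 69.8%. The median share of the kept transcript was 61.1%, 54.6% with the second quantifier, 79.6% in counts and 56.4% with posterior means. It was 63.6 to 66.2% with either library alone. The causes were not tested. Genes of the pathway lists at 1 TPM in both libraries numbered 83, between 63 and 92 under 5 alternatives. No paired analysis was possible because the labels give a single group. Socs2, with 26 and 6 expected counts, has the widest counting interval of the members.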

Other observations

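Genes listed as carrying STAT sites, which were not searched for in them here, were among the highest of the lists. Each of the 10 was at 1 TPM or above in both libraries, against 39.9% of protein-coding genes. Of the 10, 5 were at 100 TPM or above, and the share of all protein-coding genes at that level was not computed. The median of the 10 was 126 and 73.4 TPM in replicates 1 and 2. Irf1, a transcription factor of the interferon response, had 454 and 226 TPM in replicates 1 and 2, the survival gene Mcl1 347 and 238 TPM, and the adhesion gene Icam1 351 and 222 TPM. Pim2, a serine/threonine kinase gene, had 174 and 262 expected counts, a log2 ratio of -1.20, and was the only gene of the 10 over 2-fold apart between the libraries.

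Of 10 receptor kinases and adaptors that SOCS proteins are known to bind or regulate, 5 reached 1 TPM in both libraries. Of protein-coding genes 39.9% did so. The median of the list was 1.20 and 1.40 TPM. Csf1r, the receptor that sustains macrophages, had 295 and 225 TPM in replicates 1 and 2, the adaptor gene Traf6 10.8 and 11.0 TPM and the insulin receptor gene Insr 11.8 and 8.97 TPM. Tirap, the TLR4 adaptor that SOCS1 targets for degradation, had 1.46 and 1.44 TPM. The insulin receptor substrate gene Irs1 had 3 and 0 expected counts, against 547 and 637 for Irs2.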
